A study of Homo sapiens with 4 samples.

Results

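The C/EBP transcription factors CEBPA, CEBPB, CEBPD and CEBPG were followed in MCF10A, a human breast epithelial line that is immortal but forms no tumours. The 4 genes were found by name in GENCODE release 29 and are 4 of the 34500 genes, and 5 of the 173259 transcripts, in the deposited tables. They were chosen by their differences between TGF-β1 and control within each replicate number in these same libraries. Those differences are therefore given as a description, with no test. The study has 2 groups of 2 libraries. In the TGF-β1 group the cells had 1.5 h of TGF-β1 at 5 ng/ml. The control libraries carry no TGF-β1 in their labels and are taken as 0 h. Every library came from cells that carried a scramble shRNA, a hairpin without an intended target, and were grown with EGF, cholera toxin, insulin, hydrocortisone and horse serum. The labels do not say whether the shRNA line was a pool or a clone. The comparison asks which transcripts of a mammary epithelial line change soon after this cytokine is added.

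C/EBP proteins belong to the basic leucine zipper (bZIP) family. They bind DNA as pairs, with each other or with other bZIP factors, at sites with the core TTGCNNAA. CEBPA arrests growth and drives differentiation in fat, liver and myeloid cells. CEBPB is needed for growth and branching of the mouse mammary epithelium, and its mRNA gives long activating and short inhibitory proteins from different start codons, which RNA-seq cannot tell apart. CEBPD is induced by STAT3 and by glucocorticoids and is known from the G0 growth arrest of mouse mammary epithelial cells and from involution of the mouse mammary gland. CEBPG lacks a classical activation domain, pairs with other C/EBP factors and with ATF4, and can restrain its partners.

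The bases just before the RefSeq transcript starts (GRCh38.p14) are shown for the 3 of the 4 genes that matched an entry of the RefSeq table used here, CEBPA, CEBPB and CEBPG, to let their core promoter letters be compared. The match in letters says nothing of the response to TGF-β1. Each run has 250 bases, reads 5′ to 3′ on the gene's strand and ends at the base before the start. Capitals mark TGACG (the core of the cAMP response element), CCAAT and the TATA box TATAAA on either strand, so ATTGG is CCAAT read from the other strand.
CEBPA, minus strand, chr19:33302535-33302784: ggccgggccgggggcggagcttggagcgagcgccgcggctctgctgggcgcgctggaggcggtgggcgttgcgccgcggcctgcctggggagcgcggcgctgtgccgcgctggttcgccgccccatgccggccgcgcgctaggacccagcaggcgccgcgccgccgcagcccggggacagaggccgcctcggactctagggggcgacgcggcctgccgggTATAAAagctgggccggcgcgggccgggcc
CEBPB, plus strand, chr20:50190580-50190829: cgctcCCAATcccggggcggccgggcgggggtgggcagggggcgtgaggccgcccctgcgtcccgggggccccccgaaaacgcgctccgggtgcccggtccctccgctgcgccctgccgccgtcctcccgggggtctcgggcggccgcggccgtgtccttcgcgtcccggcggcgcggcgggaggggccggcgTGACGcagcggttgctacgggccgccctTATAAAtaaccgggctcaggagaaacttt
CEBPG, plus strand, chr19:33373459-33373708: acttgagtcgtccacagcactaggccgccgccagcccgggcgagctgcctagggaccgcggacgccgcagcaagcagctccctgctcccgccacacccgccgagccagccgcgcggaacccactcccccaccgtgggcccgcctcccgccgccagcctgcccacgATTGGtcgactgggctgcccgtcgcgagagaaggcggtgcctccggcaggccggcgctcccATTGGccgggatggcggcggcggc

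The RefSeq starts are not the starts of the measured GENCODE models. By those models, the CEBPB bases marked TGACG and TATAAA lie downstream of the measured start. The CEBPA window reaches past the measured CEBPA start into the transcript. CEBPG has 2 measured transcripts, which start at bases 33373330 (the longer one) and 33374312. The CEBPG window lies downstream of the first of these starts and upstream of the second. TATAAA lay 30 bases before the start in CEBPA and 29 bases before it in CEBPB, and 0 matches were found in CEBPG. Of the 35116 promoter entries in the RefSeq table, 10.7% hold TATAAA in the 250 bases before the start. CEBPB also had 1 TGACG, 57 bases before the start, and 1 CCAAT, 245 bases before it. CEBPG had 2 CCAAT matches, 85 and 24 bases before its start. TGACG was found in 21.2% and CCAAT in 32.0% of all entries, and the capitals of different motifs do not overlap. The SMAD-binding letters CAGAC, the full element TGACGTCA and the C/EBP core TTGCNNAA had 0 matches in the 3 windows, against 38.0%, 1.65% and 9.05% of all entries. All these searches covered both strands. The windows were 81.2% G and C in CEBPA, 77.6% in CEBPB and 76.0% in CEBPG, against a median of 58.0% over all entries. CEBPB and CEBPG each have a second listed start. The 250 bases before the other CEBPB start hold none of the 3 capitalised motifs, nor do those before the other CEBPG start, which hold 2 matches of CAGAC.

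The libraries held 35737659 to 40792300 estimated counts, and 14774 genes passed the filter on low counts, all 4 C/EBP genes among them. In both groups the library numbered 2 stood apart from the library numbered 1, and component 1 of a principal component analysis, with 65.91% of the variance, separated the numbers rather than the groups. Basal mammary markers were high, with KRT5 at 2129 to 2368 TPM in TGF-β1 libraries and at 2023 to 2385 TPM in controls, which fits the label. The luminal keratins KRT8 and KRT18 were also found, at levels given further on. TPM is a level per transcript length, so it can be compared between genes. CPM is the count scaled to the library total, here after TMM scaling, which evens out library composition, and is used for differences of a gene between libraries. Bulk RNA cannot tell fewer cells with a transcript from less of it per cell.

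CEBPB was the most abundant C/EBP mRNA in every library. It was at 105 and 106 TPM in TGF-β1 replicates 1 and 2, against 59.2 and 78.2 TPM in control replicates 1 and 2. Both TGF-β1 libraries lay above both controls. In CPM the means were 145 ± 8.22 with TGF-β1 and 92.3 ± 19.3 in controls (SD, n = 2 libraries each, as for every SD given), a ratio of 1.57. The ratio was 1.77 within the libraries numbered 1 and 1.42 within those numbered 2. The TGF-β1 libraries differed little from each other, while the controls differed more, with control replicate 2 the higher.

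CEBPD was the C/EBP gene with lower levels after TGF-β1. It was at 12.3 and 15.9 TPM in TGF-β1 replicates 1 and 2, against 24.5 and 51.7 TPM in control replicates 1 and 2. The groups did not overlap, and the controls were far apart, with control replicate 2 the highest. Mean CPM was 21.8 ± 5.0 with TGF-β1 and 57.7 ± 29.9 in controls, 2.64-fold lower with TGF-β1. CEBPD was 1.998-fold lower within the libraries numbered 1 and 3.11-fold lower within those numbered 2. The log2 fold change was -1.40 with all libraries and -0.74 without control replicate 2, so the size rests in part on that library. Among the 14774 tested genes, 41 (0.278%) had a log2 fold change as low or lower than the value with all libraries. As CEBPD was chosen on this contrast, nothing is read from that rank.

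CEBPA was the scarcest of the 4. Its levels were 3.32 and 3.54 TPM in TGF-β1 replicates 1 and 2, against 1.66 and 2.60 TPM in control replicates 1 and 2. These values rest on 237 and 239 counts with TGF-β1 and on 121 and 178 counts in controls. Both TGF-β1 libraries were above both controls, and control replicate 1 was the lowest of all. Mean CPM was 6.49 ± 0.61 with TGF-β1 and 3.95 ± 1.28 in controls, a ratio of 1.64. Within the libraries numbered 1 the ratio was 1.99, and within those numbered 2 it was 1.43. Its log2 fold change was 0.72 with all libraries, 1.09 without control replicate 2 and 0.42 without control replicate 1.

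CEBPG moved least. It was at 20.5 and 18.3 TPM in TGF-β1 replicates 1 and 2, against 16.3 and 17.3 TPM in control replicates 1 and 2. The groups did not overlap, though TGF-β1 replicate 2 and control replicate 2 lay close together. Mean CPM was 56.8 ± 1.71 with TGF-β1 and 48.3 ± 2.80 in controls, a ratio of 1.17. The difference in log2 CPM was 0.32 within the libraries numbered 1 and 0.14 within those numbered 2.

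**Figure D1:**
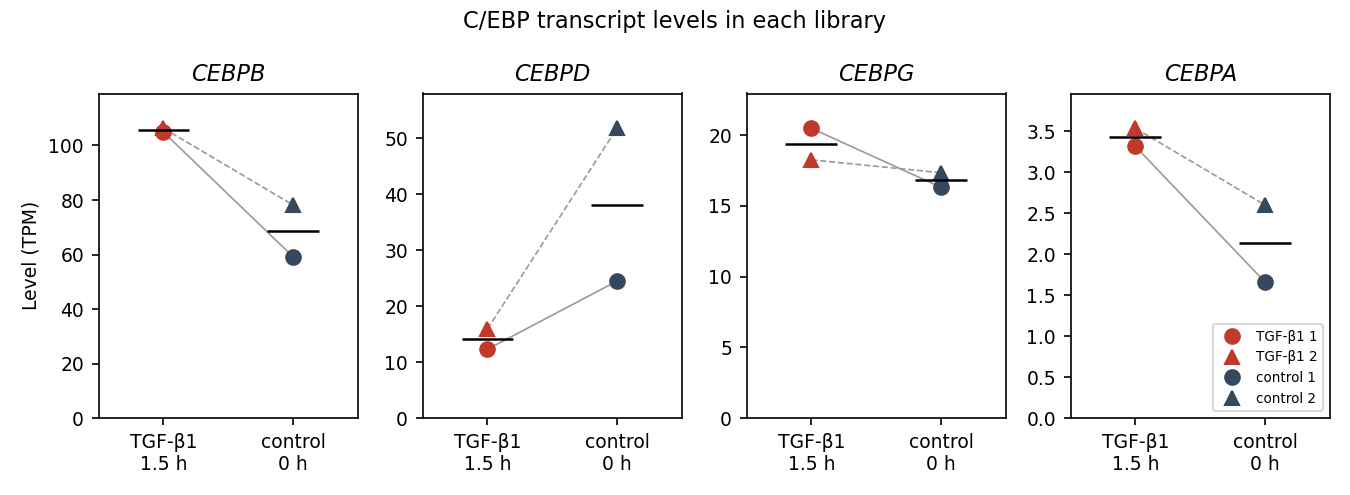
Level in TPM of each C/EBP gene (linear axes from 0, a scale of its own for each gene) in TGF-β1 libraries at 1.5 h and control libraries at 0 h. Points are libraries, circles for those numbered 1 and triangles for those numbered 2, black bars are group means of 2, and grey lines join libraries of the same number. CEBPB, CEBPG and CEBPA lie higher in both TGF-β1 libraries, and CEBPD lies lower, from 12.3 to 15.9 TPM against 24.5 to 51.7 TPM in controls.

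All 4 genes had both TGF-β1 libraries on the same side of both controls, 3 above and 1 below. Over all tested genes, 7.87% had both TGF-β1 libraries above both controls and 8.34% had both below. As the genes were chosen on this contrast, nothing is read from their count. Nor is anything read from the calls that follow. The edgeR quasi-likelihood fit called 0 of the 4 and 0.0% of the 14774 tested genes at an adjusted p under 0.05. At an unadjusted p under 0.05 it had 255 genes over the whole table. DESeq2 called 0 of the 4, with 0.555% of tested genes called higher and 0.0474% called lower. These fits did not have the replicate number as a term. With that term, edgeR called CEBPB and CEBPD, as given further on.

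The makeup of the C/EBP mRNA pool differed between the groups. CEBPB made up 74.4% and 73.8% of the summed C/EBP TPM in TGF-β1 replicates 1 and 2, against 58.3% and 52.2% in control replicates 1 and 2. CEBPD made up 8.72% and 11.1% of it in the TGF-β1 libraries, against 24.1% and 34.5% in the controls. The share of CEBPG was 14.5% and 12.7% with TGF-β1 and 16.04% and 11.57% in controls, so these ranges overlapped. The summed level was 141 and 144 TPM with TGF-β1, against 102 and 150 TPM in controls, and here too the groups overlapped.

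The order of the genes by level also differed. In both TGF-β1 libraries it was CEBPB, CEBPG, CEBPD and CEBPA. In both controls it was CEBPB, CEBPD, CEBPG and CEBPA. CEBPD and CEBPG thus exchanged places. CEBPD had 0.60 and 0.87 times the TPM of CEBPG in TGF-β1 replicates 1 and 2, against 1.50 and 2.98 times in control replicates 1 and 2. CEBPB had 8.54 and 6.68 times the TPM of CEBPD with TGF-β1, against 2.42 and 1.51 times in controls. Within each group, the values of genes next to each other in the order did not overlap. The smallest such gap was between CEBPG (18.3 and 20.5 TPM) and CEBPD (12.3 and 15.9 TPM) in the TGF-β1 libraries. Among tested genes, CEBPB stood at the 90.8th and 92.0th percentile of TPM with TGF-β1 and at the 83.6th and 88.6th in controls, and CEBPD at the 48.9th and 57.2nd with TGF-β1 and at the 65.3rd and 82.6th in controls.

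**Figure D2:**
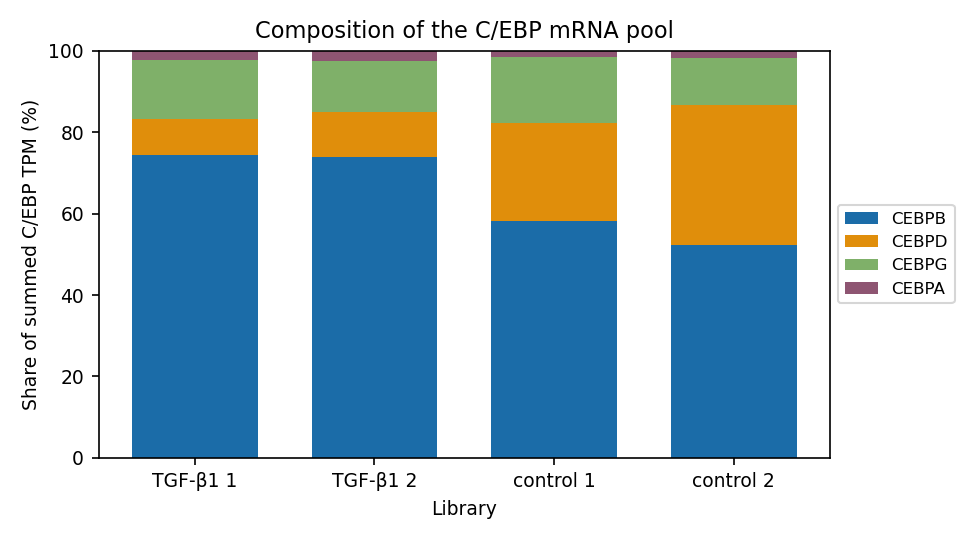
Share of each gene in the summed TPM of the 4 C/EBP genes, in percent, 1 stacked bar per library, TGF-β1 libraries on the left and controls on the right. The CEBPD segment is 8.72% and 11.1% in the TGF-β1 libraries, against 24.1% and 34.5% in the controls, and the CEBPB segment is the largest in each bar.

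The libraries numbered 2 were also compared with those numbered 1, with treatment as a term. The choice of genes did not use this difference itself. The error term of the fit rests in part on how far the treatment differences within each number agree. The choice used those differences, so the p-values are not independent of it. CEBPD was higher in the libraries numbered 2, with 52.1 CPM on average against 27.4 CPM in those numbered 1. Its log2 fold change was 0.82 ± 0.13 (SE), with an adjusted p of 0.00273 in edgeR's quasi-likelihood fit and 0.0397 in DESeq2. The difference in log2 CPM was 0.47 within TGF-β1 and 1.11 within the controls. CEBPB was also higher, with 128 CPM on average in libraries numbered 2 against 109 CPM in those numbered 1. Its log2 fold change was 0.27 ± 0.08 (SE), with an adjusted p of 0.0261 in edgeR's fit and 0.0305 in DESeq2.

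CEBPA and CEBPG did not pass that comparison. The CEBPA log2 fold change was 0.42 ± 0.17 (SE; adjusted p = 0.0835 in edgeR's fit), and the CEBPG value was 0.03 ± 0.06 (SE; adjusted p = 0.725 in edgeR's fit). The 2 calls stand against a background of 19.9% of all tested genes called higher by edgeR and 9.49% by DESeq2, so such calls are common in these libraries. The edgeR calls of CEBPD and CEBPB both ended without the treatment term (adjusted p 0.276 and 0.578 in edgeR's fit). The labels call the libraries biological duplicates and do not say what a number marks, so p-values speak only of the spread between these 4 libraries.

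**Figure D3:**
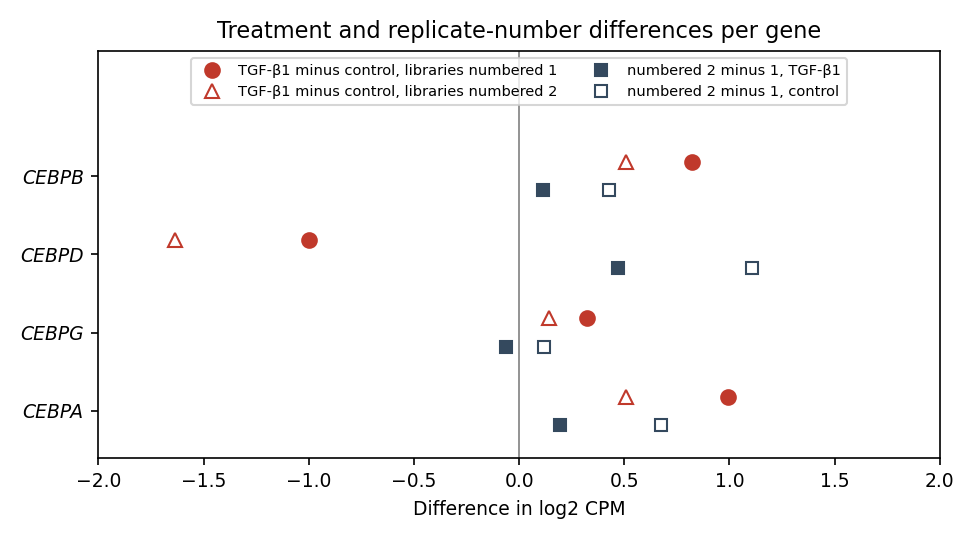
Differences in log2 CPM for each C/EBP gene, on a linear axis. Red symbols give TGF-β1 minus control within the libraries numbered 1 (filled circles) and 2 (open triangles), and dark squares give number 2 minus number 1 within TGF-β1 (filled) and within controls (open). CEBPD lies at -0.998 and -1.63 for treatment, and at 0.47 and 1.11 for the library number.

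The gene models differ in ways that bear on counting. CEBPA, CEBPB and CEBPD each have 1 measured transcript with 1 exon, so reads from their precursor and mature RNA cannot be told apart. CEBPA (ENSG00000245848.2) spans bases 33299934 to 33302564 of chromosome 19 on the minus strand, and CEBPG (ENSG00000153879.8) spans bases 33373330 to 33382686 of the same chromosome on the plus strand. They lie 70765 bases apart, and 4 other annotated genes lie wholly or partly between them. CEBPB (ENSG00000172216.5) spans bases 50190734 to 50192689 of chromosome 20, and CEBPD (ENSG00000221869.4) spans bases 47736909 to 47739086 of chromosome 8. All are protein-coding, with coordinates from GENCODE release 29 (GRCh38). CEBPG has 2 measured transcripts of 2 exons. The longer one held 52.9% and 55.1% of the gene's TPM in TGF-β1 replicates 1 and 2, against 55.3% and 57.3% in control replicates 1 and 2, and those ranges did not overlap but differed by little.

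The transcripts of CEBPA, CEBPB and CEBPD are rich in G and C. Their share was 65.9%, 66.2% and 70.0%, against a median of 51.0% over 78525 protein-coding transcripts. The CEBPG transcripts had 43.9% and 39.8%. Over the 533 tested genes whose main transcript has at least 65% G and C, the median log2 fold change was -0.00 for TGF-β1 against control. For libraries numbered 2 against 1 it was 0.13, and 25.9% were called higher by edgeR. Over the 13768 tested genes with a known G and C share, the medians were -0.005 and -0.002. For libraries numbered 2 against 1, edgeR called 19.9% of all tested genes higher. The part of base composition in the differences between library numbers was not tested. ATTTA, the core of AU-rich decay elements, occurs 0 times in the 402 bases of the CEBPD 3′ UTR and 1 time in the 618 bases of the CEBPB one. It occurs 1 time in the 1404 bases of the CEBPA 3′ UTR and 9 times in the 2994 bases of the CEBPG one. Of the transcripts whose 3′ UTR length is within 25% of the CEBPG one, 31.1% hold at least as many.

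CEBPD was the only one of the 4 whose log2 difference was at least 0.58 in size and of the same sign within both replicate numbers, the limit set for a search of like profiles. Over the 4 libraries and 9375 genes with at least 10 CPM on average, the nearest centred log2 CPM profiles by Euclidean distance included those of KLF5 (distance 0.62), CDC42EP2 (0.63), MYC (0.69) and NFKBIZ (0.70). KLF5 is a Krüppel-like factor of basal epithelium, MYC a growth-promoting transcription factor and NFKBIZ a nuclear partner of NF-κB. KLF5 had 93.1 and 129 CPM in TGF-β1 replicates 1 and 2, against 175 and 239 CPM in control replicates 1 and 2. NFKBIZ had 10.28 and 12.02 CPM with TGF-β1, against 20.3 and 24.3 CPM in controls. These 4 genes, like CEBPD, were lower in the TGF-β1 library of each number and higher in the library numbered 2 of each group. Their likeness follows from the search, which used these same libraries. With 4 libraries, many genes lie near any profile.

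**Figure D4:**
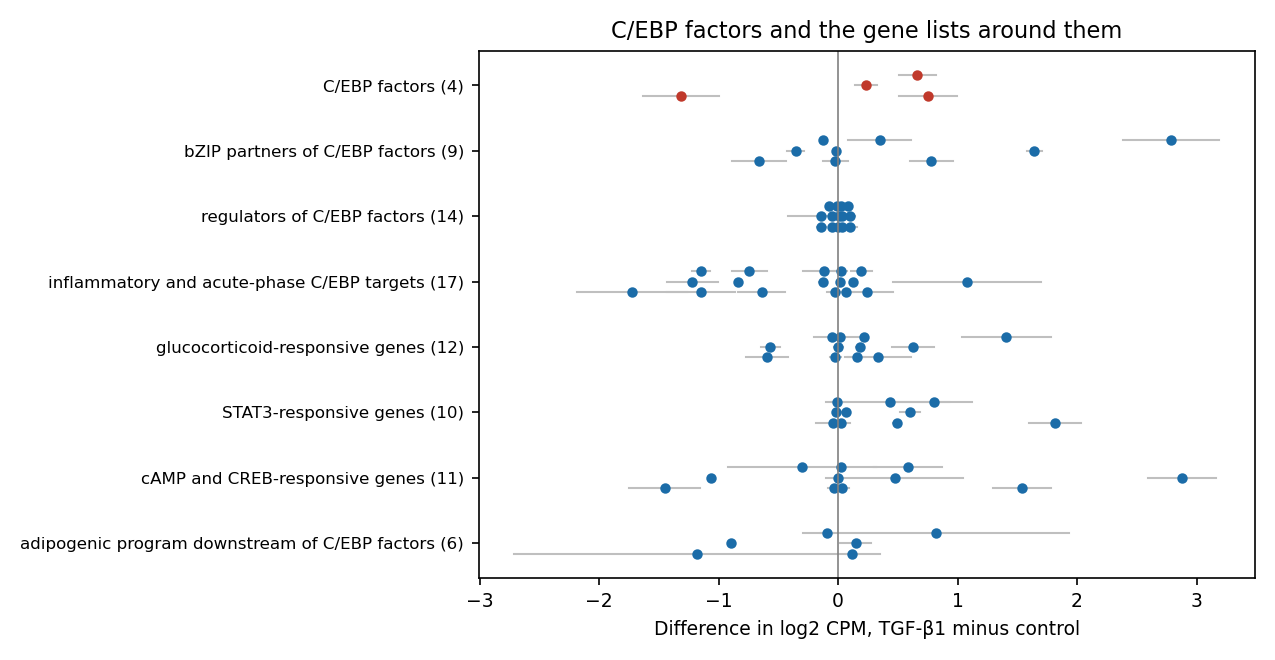
Difference in log2 CPM, TGF-β1 minus control, for the C/EBP genes (red) and the tested genes of 7 lists around them (blue), with the number of genes in brackets. A point is the mean of the values of the 2 replicate numbers and its grey line spans those values, with points shifted up or down only to keep them apart. The regulators of C/EBP factors lie close to 0, while the bZIP partners spread widely, with JUN farthest to the right among them.

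Of 12 bZIP partners of C/EBP factors, 9 were tested, and CEBPE and BATF were listed at 0 in all libraries. Both TGF-β1 libraries lay above both controls in 3, below in 3, and the groups overlapped in 3. Over all tested genes, 7.87% lay above and 8.34% below. DESeq2 called 2 higher and 0 lower, and edgeR 0 (3 at an unadjusted p under 0.05, beside 255 of all 14774 tested genes). The lists were chosen with earlier results of these data known, so nothing is read from such counts in any list. A gene is said to have risen or fallen where DESeq2's adjusted p was under 0.05. Unless stated, calls of list genes come from fits without the replicate number as a term, as the labels do not say that numbers pair libraries. Calls with that term are given further on. JUN, a subunit of AP-1 that can pair with C/EBP proteins, rose 7.05-fold (DESeq2 adjusted p = 8.27e-19), with 132 and 203 CPM in TGF-β1 replicates 1 and 2 against 25.3 and 22.2 CPM in control replicates 1 and 2. FOS, its AP-1 partner, rose 3.16-fold (DESeq2 adjusted p = 0.00551), with 103 and 187 CPM with TGF-β1 against 34.6 and 57.3 CPM in controls. FOS was not called when control replicate 1 or TGF-β1 replicate 2 was left out, whereas JUN was called whichever library was left out. ATF4, the stress-response factor that pairs with CEBPG, had 317 and 497 CPM with TGF-β1 against 346 and 469 CPM in controls, and the groups overlapped. NFIL3, a bZIP repressor, had 14.5 and 16.1 CPM with TGF-β1 against 19.5 and 19.6 CPM in controls, and ATF2, a partner in AP-1 and C/EBP pairs, 57.0 and 57.9 CPM against 58.1 and 58.2 CPM. The median log2 fold change of the list was -0.003, beside -0.01 over all tested genes.

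Of the 14 genes that regulate C/EBP factors, all were tested, with 0 calls by either tool (0 genes at an unadjusted p under 0.05 in edgeR). Over all tested genes, edgeR called 0.0%, and DESeq2 called 0.555% higher and 0.0474% lower. Both TGF-β1 libraries lay above both controls in 1 regulator and below in 2, beside 7.87% and 8.34% of all tested genes. The groups overlapped in 11, and the median log2 fold change was 0.01. STAT3, which activates CEBPD, had 193 and 231 CPM in TGF-β1 replicates 1 and 2, against 195 and 222 CPM in control replicates 1 and 2. NR3C1, the glucocorticoid receptor, had 193 and 211 CPM with TGF-β1 against 172 and 205 CPM in controls. TRIB1, a pseudokinase that directs CEBPA to degradation, had 22.3 and 21.4 CPM with TGF-β1, against 20.4 and 20.2 CPM in controls. SIAH2, a ubiquitin ligase for CEBPD, had 28.5 and 26.9 CPM with TGF-β1, against 30.7 and 30.4 CPM in controls.

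Among 20 inflammatory and acute-phase genes with known C/EBP sites or dependence, 17 were tested, 5 had both TGF-β1 libraries below both controls and 0 had both above. Over all tested genes, 8.34% had both below and 7.87% both above. DESeq2 called 1 lower and 0 higher, edgeR 0 (3 at an unadjusted p under 0.05), and the median log2 fold change was -0.13. CXCL2, a neutrophil chemokine, fell to 2.53 and 4.90 CPM in TGF-β1 replicates 1 and 2, against 11.5 and 11.8 CPM in control replicates 1 and 2, 3.14-fold lower (DESeq2 adjusted p = 0.015). It was called without TGF-β1 replicate 2 but not when any of the other 3 libraries was left out. The related CXCL1 had 24.8 and 19.2 CPM with TGF-β1, against 67.2 and 38.4 CPM in controls, and did not pass (DESeq2 adjusted p = 0.0558). Without control replicate 2, DESeq2 called CXCL1 and CXCL8, a further neutrophil chemokine, lower. Leaving out control replicate 2 moved the median log2 fold change of the list to -0.54, TGF-β1 replicate 1 to -0.50 and control replicate 1 to -0.07. PTX3, an acute-phase pentraxin, had 2.12 and 1.22 CPM with TGF-β1 against 3.73 and 2.21 CPM in controls and is among the 5 below. SAA1 and C3 overlapped between the groups. SAA1, serum amyloid A, had 303 and 217 CPM with TGF-β1 against 295 and 231 CPM in controls. C3, the complement component, had 1246 and 1584 CPM with TGF-β1 against 1024 and 1475 CPM in controls.

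The medium held hydrocortisone, and CEBPD is a known glucocorticoid target, so 12 other glucocorticoid-responsive genes were examined. Without the replicate number as a term, neither tool called any of them (0 genes at an unadjusted p under 0.05 in edgeR). Of all tested genes, edgeR called 0.0%, and DESeq2 called 0.555% higher and 0.0474% lower. In this list 2 genes had both TGF-β1 libraries above both controls and 1 had both below, beside 7.87% and 8.34% of all tested genes. The groups overlapped in 9, and the median log2 fold change of the list was 0.08. With the replicate number as a term, edgeR called DUSP1 and ANGPTL4 higher, as given further on. FKBP5, a chaperone of the receptor, had 471 CPM in both TGF-β1 libraries, against 487 and 490 CPM in control replicates 1 and 2. TSC22D3, also called GILZ, had 49.8 and 143 CPM in TGF-β1 replicates 1 and 2, against 85.1 and 191 CPM in controls. SGK1, a serum- and glucocorticoid-regulated kinase, had 35.6 and 67.8 CPM with TGF-β1, against 55.8 and 95.1 CPM in controls. Both overlapped between the groups, yet were lower with TGF-β1 within each number, with log2 CPM differences of -0.77 and -0.42 for TSC22D3 and of -0.65 and -0.49 for SGK1. DUSP1, a MAP kinase phosphatase, had 270 and 469 CPM with TGF-β1, against 198 and 269 CPM in controls. ANGPTL4, a lipase inhibitor, had 381 and 243 CPM with TGF-β1, against 186 and 70.9 CPM in controls, and DESeq2 called it without control replicate 1 only.

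Of 10 STAT3-responsive genes, all tested, 4 had both TGF-β1 libraries above both controls and 0 had both below. The shares over all tested genes were 7.87% above and 8.34% below. DESeq2 called 1 higher, edgeR 0 (3 at an unadjusted p under 0.05), and the median log2 fold change was 0.22. PIM1, a survival kinase, rose 3.37-fold (DESeq2 adjusted p = 0.00961), with 77.9 and 49.5 CPM in TGF-β1 replicates 1 and 2 against 25.7 and 12.1 CPM in control replicates 1 and 2. PIM1 was not called when control replicate 2 or TGF-β1 replicate 1 was left out. BCL3, a nuclear IκB protein, had 7.31 and 7.995 CPM with TGF-β1, against 5.21 and 3.69 CPM in controls. IL6R, a receptor chain for IL-6, had 27.8 and 37.4 CPM with TGF-β1, against 19.4 and 23.3 CPM in controls, and TNFRSF1A, a TNF receptor, had 88.9 and 83.4 CPM against 82.9 and 81.96 CPM. SOCS3, the feedback inhibitor of STAT3 signalling, had 9.79 and 8.84 CPM with TGF-β1, against 5.16 and 9.15 CPM in controls, and overlapped.

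Of 12 cAMP and CREB-responsive genes, 11 were tested. In both TGF-β1 libraries 2 lay above and 2 below, beside 7.87% and 8.34% of all tested genes. The median log2 fold change of the list was 0.05. Its sign depended on single libraries. It was 0.47 and -0.23 when TGF-β1 replicates 1 and 2 were left out in turn, and -0.26 and 0.56 when control replicates 1 and 2 were. DESeq2 called 2 higher and 0 lower, and edgeR 0 (3 at an unadjusted p under 0.05). SIK1, a salt-inducible kinase that restrains CREB coactivators, rose 2.90-fold (DESeq2 adjusted p = 1.34e-07), with 47.3 and 54.0 CPM in TGF-β1 replicates 1 and 2 against 19.3 and 15.7 CPM in control replicates 1 and 2. Its call held without any 1 library, though reads shared with its near-identical copy SIK1B leave it uncertain as a single gene. FOSB, an AP-1 subunit, rose 7.18-fold (DESeq2 adjusted p = 2.06e-06), with 4.551 and 4.403 CPM with TGF-β1 against 0.76 and 0.49 CPM in controls. Leaving out either TGF-β1 library ended the FOSB call. PDE4B, a cAMP phosphodiesterase, had 1.87 and 4.98 CPM with TGF-β1 against 6.27 and 11.1 CPM in controls, and of the DESeq2 fits only the one lacking TGF-β1 replicate 2 gave it as lower.

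In the adipogenic program known to follow C/EBP factors, 6 of 10 genes were tested with 0 calls by either tool (1 gene at an unadjusted p under 0.05 in edgeR). The shares called over all tested genes were 0.0% by edgeR, and 0.555% higher and 0.0474% lower by DESeq2. PPARG, the master regulator of fat cells, had 16.3 and 12.1 CPM in TGF-β1 replicates 1 and 2, against 14.6 and 11.6 CPM in control replicates 1 and 2, and the groups overlapped. KLF5 was the member with both TGF-β1 libraries below both controls, as were 8.34% of all tested genes. With the replicate number as a term, edgeR called KLF5 lower, as given further on. The median log2 fold change was -0.002. CEBPZ, which shares the C/EBP name but is no bZIP protein, had 72.6 and 80.0 CPM with TGF-β1, against 72.7 and 69.6 CPM in controls, and overlapped.

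C/EBP factors are also abundant in other cell types, so markers of these were measured. The 5 adipocyte markers summed to 0.51 and 1.05 TPM in the TGF-β1 libraries, against 0.52 and 0.72 TPM in controls. The 4 hepatocyte markers summed to 0.28 and 2.08 TPM with TGF-β1, against 0.157 and 1.123 TPM in controls. The 6 myeloid markers summed to 25.8 and 37.4 TPM with TGF-β1, against 29.1 and 38.9 TPM in controls, mostly from CD14. CSF1R had 2.74 and 2.23 TPM with TGF-β1, against 2.97 and 2.34 TPM in controls. MPO, ELANE, LYZ and PTPRC were each below 0.4 TPM in all libraries. The 4 fibroblast markers summed to 25.9 to 28.1 TPM with TGF-β1, against 19.3 to 21.1 TPM in controls, mostly DCN. COL1A1, a collagen chain, had 8.74 and 4.90 CPM with TGF-β1 against 3.90 and 2.59 CPM in controls. Of the 7 luminal markers, KRT19 and ELF5 were below 0.5 TPM in all libraries, but the luminal keratins KRT18 and KRT8 were abundant. KRT18 had 432.5 and 347 TPM with TGF-β1, against 454 and 348 TPM in controls. KRT8 had 223 and 160.5 TPM with TGF-β1, against 236 and 146 TPM in controls. EPCAM, an adhesion protein, had 42.8 and 42.97 TPM with TGF-β1, against 46.3 and 42.2 TPM in controls. ESR1, the oestrogen receptor, had 1.28 and 1.09 TPM with TGF-β1, against 1.37 and 1.265 TPM in controls. In CPM, ESR1 had 5.93 and 5.45 with TGF-β1, against 6.29 and 5.98 in controls. KRT14, a basal keratin, had 327 and 385 CPM with TGF-β1, against 304 and 311 CPM in controls. Without the replicate number as a term, neither tool called a gene of the 6 marker lists (0 genes at an unadjusted p under 0.05 in edgeR). Among all tested genes, edgeR called 0.0%, and DESeq2 called 0.555% higher and 0.0474% lower. With the replicate number as a term, edgeR called COL1A1 higher, as given further on. The part of the fibroblast markers in the C/EBP differences was not tested.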

How the data were processed

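The 4 MCF10A libraries were stranded and depleted of ribosomal RNA per the labels' protocols, although a label field gives polyA RNA. Per the submitters' processing notes, the authors used kallisto and GRCh38. In the sources used here, the version and transcript release are not given. The authors' deposited tables hold estimated counts and TPM values per transcript, with transcript lengths and effective lengths, per the file headers.

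Transcripts were joined to GENCODE release 29 genes by identifier (91.91% of 173259 matched), and a gene's estimated counts were added up, then rounded to whole numbers. Groups were compared with edgeR 4.0.16 (quasi-likelihood, TMM, filterByExpr, R 4.3.3) with Benjamini-Hochberg adjustment over 14774 genes. DESeq2 1.42.0 and limma 3.58.1 on log2(TPM + 1) and log2(TPM + 0.1) were alternatives. Other alternatives are given further on. An SE is the absolute log2 fold change over the root of edgeR's F statistic. "Rose" and "fell" mean a DESeq2 adjusted p under 0.05.

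The C/EBP genes and the 14 lists were chosen with earlier results of these data known. Up to 4 genes per list were named by the size of their change among those with at least 5 CPM and groups that did not overlap, and any called gene. Others, such as ATF4, STAT3 and SOCS3, were named for their role after their values were seen. The edgeR fits were tested on counts simulated with the same spread setting for every gene. For TGF-β1 against control, no difference between replicate numbers was put in, unlike in these libraries. That test therefore does not show how well the fits do on the real data. Values of 2 genes that the naming rules pick are not reported here.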

Additional observations from a re-analysis of the deposited data

How the results depend on the processing

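With TGF-β1 against control, edgeR called 0 genes. DESeq2 called 89, and edgeR without a filter on low counts called 15. RLE scaling and limma with either pseudocount called 0. Leaving out 1 library gave edgeR 8 to 25 calls, and DESeq2 43 and 70 when TGF-β1 replicates 1 and 2 were left out, against 68 and 62 when control replicates 1 and 2 were. Those DESeq2 fits and the untested differences given further on were added after seeing the data. The cause of these differences was not tested. In each fit that leaves out a library, the group with 1 library is assumed to vary like the other.

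With the replicate number as a block, edgeR called 335 of the 14774 tested genes, 259 higher and 76 lower. CEBPB was among those called higher and CEBPD among those called lower. As the genes were chosen on this contrast, nothing is read from these calls. Among list genes, only those that the naming rules pick were followed in that fit. The fit called FOS, JUN, PIM1, SIK1, FOSB, DUSP1 (adjusted p = 0.0115), ANGPTL4 (0.00527), IL6R (0.008) and COL1A1 (0.0182) higher. It called CXCL2, CXCL1 (adjusted p = 0.00129), PDE4B (0.00895) and KLF5 (0.000184) lower. Results of that fit for list genes named otherwise, such as SGK1, TSC22D3 and CXCL8, are not given here. The labels do not say that the numbers pair libraries. Across genes, the difference between numbers in TGF-β1 libraries correlated with that in controls (r = 0.68 across 14774 genes, which are not independent).

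No C/EBP gene changed direction for treatment in any of the 14 alternatives. Each gene had both TGF-β1 libraries on the same side of both controls, so leaving out a library could hardly turn the sign. The remaining alternatives used the same libraries. The log2 fold change ran from 0.46 to 0.88 for CEBPB, -1.85 to -0.74 for CEBPD, 0.42 to 1.10 for CEBPA and 0.18 to 0.30 for CEBPG, and each end came from a fit without 1 control library. DESeq2 called CEBPD without control replicate 1. As the genes were chosen on this contrast, neither such calls nor the kept direction are support. List medians also moved without 1 library in edgeR: -0.07 to 0.32 for glucocorticoid-responsive genes, -0.13 to 0.28 for bZIP partners, -0.59 to 0.08 for the adipogenic program, 0.14 to 0.39 for STAT3-responsive genes and -0.03 to 0.02 for regulators. TPM of the most abundant transcript alone gave CEBPG 10.5 TPM with TGF-β1 and 9.48 TPM in controls.

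For libraries numbered 2 against 1, edgeR called 6635 genes, DESeq2 3571, RLE scaling 6292, no filter 6754 and no treatment term 5524. Without 1 library only the difference within the other group remains, with no test. It was 0.47 to 1.11 for CEBPD, 0.12 to 0.43 for CEBPB, 0.19 to 0.67 for CEBPA and -0.062 to 0.12 for CEBPG, where the negative value is the one without either control. CEBPA rests on 121 to 239 counts per library, which limits its precision.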
